A study of Homo sapiens with 4 samples.

Results

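The 10 genes CDH1, EPCAM, ESRP1, GRHL2, VIM, SPARC, FN1, CDH2, ZEB1 and SNAI2, which mark epithelial or mesenchymal identity, were examined by symbol in HT-29 and NCM460 cells, out of 64936 named rows of the expression table. The first 4 are epithelial and the other 6 mesenchymal. Each had 1 row, and none had the same values as an adjacent row, so none was merged with another gene. Partial or antisense overlap with other genes was not checked. The list was set by symbol and not by any measured value, although earlier results of these data were known when it was drawn up.

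Epithelial cells hold on to each other through cadherin junctions and carry a set of transcription and splicing factors that keep this state. During epithelial-mesenchymal transition (EMT), factors such as ZEB1 and SNAI2 repress those genes, E-cadherin gives way to N-cadherin, keratins to vimentin, and matrix proteins such as fibronectin are secreted. Carcinoma lines are placed along this axis by the same genes.

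The libraries were from HT-29, a human colorectal adenocarcinoma cell line, and from NCM460, a line derived from normal human colon mucosa. Cells of each line were cultured without addition (control) or with 100 μg/mL sturgeon chondroitin sulfate (SCS), a sulfated polysaccharide of cartilage, for 24 h. Analysed here was 1 RNA-seq library per condition, 4 in all, so within a line there is no replicate. The submitters' labels give 1 serum level for both lines and the study's methods different ones, so whether the medium differed between the lines is not settled. Both are single established lines.

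The libraries held 1156568 to 1654764 fragments assigned to genes. Mitochondrial genes took 35.8% (control) and 13.8% (SCS) of the HT-29 fragments, and 62.3% and 46.3% of those of NCM460. Across loci, the difference between the 2 NCM460 libraries ran against transcript GC content (Spearman's rho of -0.63), as did that between the control libraries (-0.50). In HT-29 (-0.12) and between the SCS libraries (-0.15) it did so less. These rho values describe loci and carry no test, and the part of mitochondrial share and GC content in the results below was not tested. Levels are fragments, CPM (counts relative to library size, scaled by trimmed mean of M-values, TMM) or, between genes, the deposited FPKM (fragments per kilobase of transcript and library size). Intervals are exact and at 95%, and cover counting error only. A gene was called between 2 libraries when the fold exceeded 1.5 and its interval excluded 0 on the log2 scale.

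Markers of the tissue were checked first. Of 15 colon epithelium genes, 5 and 6 had more than 3 fragments in the HT-29 libraries and 2 in each NCM460 library. Keratin 20 (KRT20), galectin-4 (LGALS4) and villin (VIL1) were found in HT-29 and had 0 fragments in NCM460. CDX2, an intestinal homeobox factor, had 0 fragments in both HT-29 libraries and 14 and 12 in NCM460 control and SCS. CDX1, MUC2, TFF3, FABP1, GPA33 and SLC26A3 were at 0 throughout. Of 10 fibroblast genes 5 were at 0 everywhere (COL1A2, COL3A1, DCN, LUM and FAP), with a summed level of 23.9 to 28.3 CPM in HT-29 and 42.4 to 53.6 CPM in NCM460. PTPRC, CD3E and CD14 of leukocytes and KRT5, KRT14 and TP63 of squamous epithelium were at 0. Endothelial genes summed to 9.25 to 24.1 CPM, with 1 to 3 of 10 above 3 fragments, and leukocyte genes to 395 to 618 CPM, nearly all from LYZ (603, 352, 0 and 0 fragments) and from a locus that CD68 shares with other genes. Squamous genes summed to 49.4 to 176 CPM, mostly SFN, with 2 or 3 of 10 above 3 fragments. The part of these genes in the results was not tested. In bulk RNA, fewer cells of a type and less RNA per cell cannot be told apart.

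Promoter windows of RefSeq (GRCh38.p14, 250 bases before to 50 after a start site) were matched by symbol for 5 of the 10 genes, namely FN1, SPARC, VIM, ZEB1 and CDH2. CDH1, EPCAM, ESRP1, GRHL2 and SNAI2 had no entry. The windows of 3 genes are shown, those of the mesenchymal gene with the highest level, of the cytoskeletal gene that was close to 0 in HT-29, and of the repressor. Capitals mark CACCTG, or CAGGTG on the other strand, the E-box read by ZEB and SNAI proteins.
SPARC, chr5:151686866-151687165, minus strand: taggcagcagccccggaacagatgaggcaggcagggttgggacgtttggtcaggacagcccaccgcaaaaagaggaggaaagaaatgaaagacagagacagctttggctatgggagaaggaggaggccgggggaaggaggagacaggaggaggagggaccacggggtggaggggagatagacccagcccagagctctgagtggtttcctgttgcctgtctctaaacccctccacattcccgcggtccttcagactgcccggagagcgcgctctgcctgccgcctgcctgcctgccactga
VIM, chr10:17227991-17228290, plus strand: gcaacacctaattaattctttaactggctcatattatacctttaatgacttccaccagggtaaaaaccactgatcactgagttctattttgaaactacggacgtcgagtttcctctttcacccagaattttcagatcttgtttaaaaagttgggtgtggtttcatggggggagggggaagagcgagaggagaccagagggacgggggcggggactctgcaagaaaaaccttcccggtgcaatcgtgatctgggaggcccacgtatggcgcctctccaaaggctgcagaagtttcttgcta
ZEB1, chr10:31318966-31319265, plus strand: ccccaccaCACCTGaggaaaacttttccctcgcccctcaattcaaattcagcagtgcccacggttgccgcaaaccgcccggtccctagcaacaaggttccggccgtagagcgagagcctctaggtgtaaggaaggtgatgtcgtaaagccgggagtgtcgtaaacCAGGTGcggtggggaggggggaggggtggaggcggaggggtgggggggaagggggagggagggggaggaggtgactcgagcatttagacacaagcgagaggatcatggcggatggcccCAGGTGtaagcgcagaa
The ZEB1 window holds 3 E-boxes, whose first bases lie at -242, -85 and 33 from the start site. The SPARC and VIM windows hold none of these letters. Of 35116 windows of the same length, 20.6% hold at least 1 match and 0.635% at least 3. Of the 7 ZEB1 windows, the one shown has the most matches. Another has 1 match (at -57) and the rest have none, and the FN1 and CDH2 windows have none. The shares above are per window, not per gene. CCGGTT, or AACCGG on the other strand, which grainyhead factors such as GRHL2 read, occurs in 7.23% of all windows and in none of those of the 5 genes. The windows of SPARC and VIM hold 11 and 10 CpG dinucleotides. A match is a stretch of letters, not a measured site.

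Epithelial genes made up nearly all of the fragments of the 10 genes in HT-29 and most of them in NCM460. Epithelial and mesenchymal genes had 1064 and 8 fragments in untreated HT-29 cells and 1691 and 17 after SCS. In NCM460 they had 185 and 84 untreated, and 325 and 125 after SCS. The mesenchymal share was therefore 0.746% (0.323 to 1.47) and 0.995% (0.581 to 1.59) in HT-29, and 31.2% (25.7 to 37.1) and 27.8% (23.7 to 32.2) in NCM460. Within a line the 2 intervals overlap, and between the lines they are far apart. Most of the NCM460 share is SPARC. Without it the shares were 0.746%, 0.995%, 9.31% and 6.61% in the same order.

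**Figure D1:**
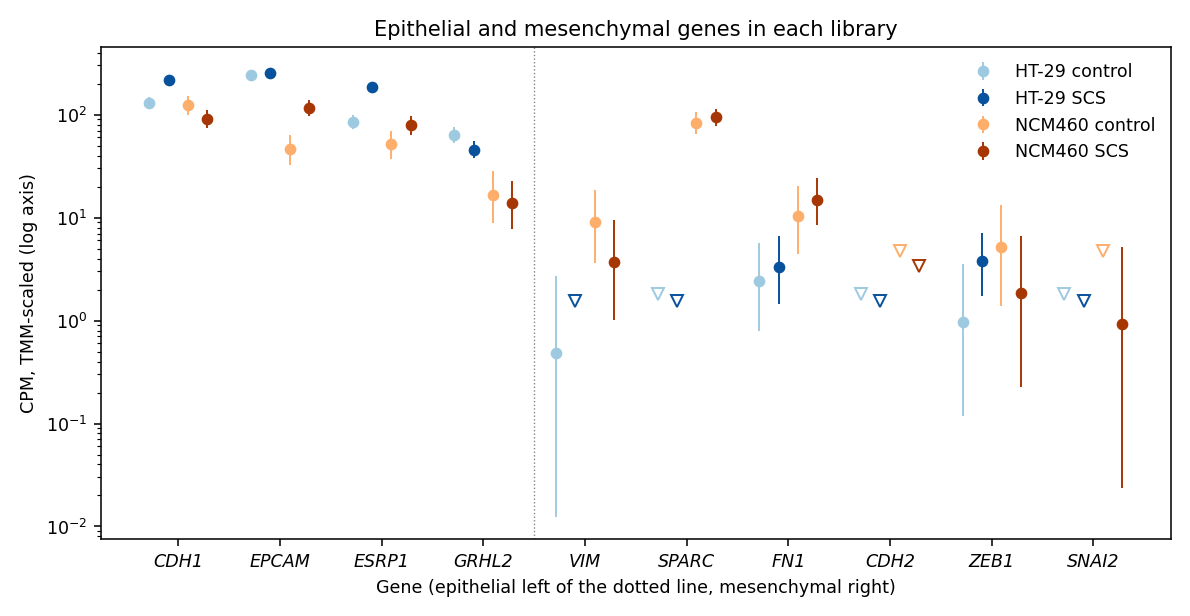
Level of each of the 10 genes in each library, in CPM on a log axis. Points are values with exact 95% counting intervals, and open triangles are the upper interval end of a gene with 0 fragments. The 4 epithelial genes are detected in all 4 libraries, whereas SPARC lies at 83.5 and 94.3 CPM in NCM460 and at 0 fragments in HT-29.

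Among the adhesion genes, CDH1 (ENSG00000039068, chr16:68737225-68835548, plus strand, GRCh38) encodes E-cadherin, the calcium-dependent adhesion molecule of adherens junctions. It had 267 fragments in untreated and 526 in SCS-treated HT-29, then 96 and 99 in untreated and SCS-treated NCM460, or 130.5, 219, 123 and 91.5 CPM. The 2 controls thus had like levels, HT-29 with SCS was highest and NCM460 with SCS lowest. EPCAM (ENSG00000119888, chr2:47345158-47387601, plus strand) encodes the epithelial cell adhesion molecule. It had 492, 605, 36 and 126 fragments in the same order, or 240.5, 252, 46.2 and 117 CPM, and both HT-29 libraries lay above both NCM460 libraries.

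Among the regulators, ESRP1 (ENSG00000104413, chromosome 8) encodes a splicing factor that sets epithelial exon choice. Its fragments numbered 174, 450, 40 and 85, or 85.0, 187, 51.4 and 78.6 CPM. GRHL2 (ENSG00000083307, chromosome 8), a grainyhead factor that activates junction genes, had 131, 110, 13 and 15 fragments, or 64.0, 45.8, 16.7 and 13.9 CPM. In CPM, both HT-29 libraries lay above both NCM460 libraries for each of these genes. For ESRP1 the intervals of the HT-29 control (72.9 to 98.7) and of NCM460 with SCS (62.8 to 97.2) overlapped. How many of all loci separate the lines in this way was not counted.

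The mesenchymal genes were low apart from SPARC. SPARC (ENSG00000113140, chr5:151661096-151687165, minus strand) encodes osteonectin, a secreted protein that binds collagen. It had 0 fragments in both HT-29 libraries, and 65 and 102 in untreated and SCS-treated NCM460, so the lines were fully apart. VIM (ENSG00000026025, chr10:17228259-17237593, plus strand), which encodes the intermediate filament vimentin, had 1, 0, 7 and 4 fragments. FN1 (ENSG00000115414, chr2:215360440-215436172, minus strand), which encodes fibronectin, had 5, 8, 8 and 16 fragments, or 2.44, 3.33, 10.3 and 14.8 CPM. By CPM, VIM and FN1 were higher in each NCM460 library than in each HT-29 library, but some intervals overlapped. Those of VIM did so between the HT-29 control (0.0124 to 2.72) and NCM460 with SCS (1.01 to 9.47). Those of FN1 did so between HT-29 with SCS (1.44 to 6.56) and the NCM460 control (4.43 to 20.2).

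The EMT transcription factor ZEB1 (ENSG00000148516, chr10:31318495-31529814, plus strand) had 2, 9, 4 and 2 fragments, and its lines overlapped. SNAI2 (ENSG00000019549, chromosome 8), the zinc finger repressor Slug, had 1 fragment in NCM460 with SCS and 0 elsewhere. CDH2 (ENSG00000170558, chr18:27950966-28177446, minus strand), which encodes N-cadherin, had 0 fragments in all 4 libraries. A count of 0 allows up to 3 fragments as a one-sided limit at 95%, which is 1.47 and 1.25 CPM in the HT-29 control and SCS libraries and 3.85 and 2.77 CPM in those of NCM460. The plot of levels draws the upper end of the 2-sided 95% interval instead, 1.80, 1.54, 4.74 and 3.41 CPM in the same order. N-cadherin was thus not detectable at this depth.

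Between genes, FPKM gave EPCAM as the highest of the 10 in HT-29 and SPARC and EPCAM as the leading pair in NCM460. In the HT-29 control the order was EPCAM 138 (126 to 151), CDH1 28.6 (25.2 to 32.2), ESRP1 19.9 (17.1 to 23.1) and GRHL2 10.5 (8.76 to 12.4) FPKM, and no neighbours overlapped. In HT-29 with SCS, EPCAM (106 FPKM) was followed by ESRP1 at 42.2 (38.4 to 46.3) and CDH1 at 39.1 (35.8 to 42.5), which did not differ beyond counting error. There, GRHL2 at 7.48 (6.15 to 9.02) overlapped FN1 at 4.03 (1.74 to 7.95).

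In the NCM460 control, SPARC at 56.9 (43.9 to 72.5) and EPCAM at 43.0 (30.1 to 59.6) FPKM overlapped, as did EPCAM and CDH1 at 29.1 (23.6 to 35.5). ESRP1 followed at 17.0 (12.1 to 23.1), overlapping VIM at 8.32 (3.34 to 17.1). In NCM460 with SCS the order was EPCAM at 76.9 (64.1 to 91.6), SPARC at 41.8 (34.0 to 50.7), CDH1 at 25.1 (20.4 to 30.6) and ESRP1 at 20.8 (16.6 to 25.7), of which the last 2 overlapped. VIM, FN1 and ZEB1 were at 2.62 FPKM or less in every library other than VIM and FN1 in the NCM460 control and FN1 in HT-29 with SCS. The deposited FPKM did not follow the fragments evenly. The FPKM per CPM of EPCAM ranged from 0.422 to 0.931 and that of FN1 from 0.158 to 1.21 across the libraries, so FPKM differences between libraries can differ from those of fragments.

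The first comparison asked how far the carcinoma line and the mucosa-derived line differ. EPCAM and GRHL2 were higher in HT-29 at both conditions, SPARC, VIM and FN1 were lower, and CDH1 was called with SCS and not without it. Without SCS, 3 of the 4 epithelial genes were called higher in HT-29, where 25.3% of 12691 loci were called higher. EPCAM was higher by 2.35 on the log2 scale (1.89 to 2.91), GRHL2 by 1.86 (1.12 to 2.89) and ESRP1 by 0.71 (0.22 to 1.26). CDH1 differed by 0.08 (-0.26 to 0.43), or by 1.16 when the libraries were scaled by total fragments only. After a GC trend across loci was subtracted, EPCAM (1.64) and GRHL2 (1.82) were still called, and ESRP1 turned to -0.26.

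With SCS, all 4 epithelial genes were called higher in HT-29, against 24.2% of 13050 loci. The log2 differences were 1.25 (0.95 to 1.58) for CDH1, 1.10 (0.83 to 1.40) for EPCAM, 1.24 (0.92 to 1.60) for ESRP1 and 1.64 (0.94 to 2.61) for GRHL2. Each stayed called after the GC trend was subtracted. By deposited FPKM the differences were 0.63 for CDH1, 0.46 for EPCAM, 1.02 for ESRP1 and 0.70 for GRHL2. That of EPCAM was then under the 1.5-fold limit.

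The 3 mesenchymal genes SPARC, VIM and FN1 were called lower in HT-29 in both comparisons, against 23.1% of loci called lower without SCS and 22.4% with it. SPARC had 0 fragments in HT-29 against 65 without SCS and 102 with it, and the exact intervals of the CPM ratio reached up to 0.0222 and 0.0166. VIM had 1 fragment against 7 without SCS, a CPM ratio of 0.0544 (0.00121 to 0.423). With SCS it had 0 against 4, with a ratio of up to 0.682. FN1 differed by -1.64 (-4.03 to -0.28) and -1.80 (-3.58 to -0.84) on the log2 scale. By deposited FPKM the difference of FN1 with SCS turned to 0.76. ZEB1 was not called in either, with CPM ratios of 0.190 (0.0172 to 1.33) and 2.03 (0.419 to 19.3), though without SCS it was called lower, at -2.45 on the log2 scale, after the GC trend was subtracted.

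**Figure D2:**
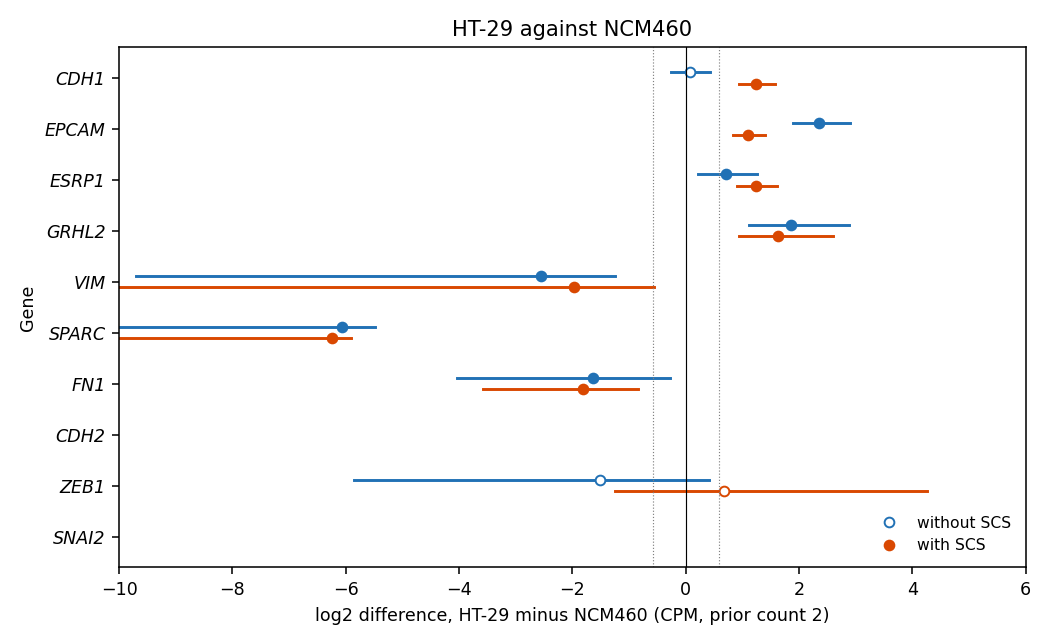
Log2 difference of CPM between HT-29 and NCM460 for each gene, with and without SCS, with 95% counting intervals. Filled points are called and open points are not, dotted lines mark the 1.5-fold limit, and intervals that reach the left edge run beyond it. CDH1 moves from 0.08 without SCS to 1.25 with it, and CDH2 and SNAI2 are not drawn because they fell below the level filter.

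A fit over all 4 libraries, with line and treatment as terms, took how differently the 2 lines moved with SCS as its error, with 1 residual degree of freedom. The libraries of a line are not replicates of a condition. In edgeR's quasi-likelihood test with Benjamini-Hochberg adjustment over 12942 loci, 8% were higher in HT-29 and 8.21% lower. Of the 10 genes, 8 passed the level filter, and 3 of these had an adjusted p under 0.05.

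EPCAM was higher in HT-29 (log2 difference 1.72, edgeR adjusted p = 0.0204), and GRHL2 too (1.82, edgeR adjusted p = 0.0379). SPARC was lower (edgeR adjusted p = 3.07e-15), and its fitted fold is not given because both HT-29 counts are 0. With DESeq2's Wald test the adjusted p was 0.0276 for EPCAM, 0.223 for GRHL2 and 0.0966 for SPARC, so the last 2 calls ended there. With line as the only term, that of EPCAM was 0.0525 in edgeR. For VIM the edgeR adjusted p was 0.0599, and over the alternatives it ran from 0.00134 (limma-voom) to 0.136. FN1 (-2.09, adjusted p = 0.0900), CDH1 (0.67, adjusted p = 0.449), ESRP1 (1.00, adjusted p = 0.231) and ZEB1 (-0.54, adjusted p = 0.845) did not pass in edgeR. These adjusted p-values in edgeR were 0.0366 for CDH1 and 0.0131 for ESRP1 when libraries were scaled by total fragments only.

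SCS was then compared with control in each line, first in HT-29. CDH1 and ESRP1 were higher with SCS, and EPCAM did not differ beyond counting error. Of the 6 genes that passed the level filter, 2 were called higher, against 16.8% of 12168 loci, and 0 lower, against 14.8%. ESRP1 went from 174 to 450 fragments, a log2 difference of 1.13 (0.88 to 1.40), larger than that of 90.9% of loci. CDH1 went from 267 to 526 fragments, a difference of 0.74 (0.53 to 0.96), larger than that of 81.3% of loci. By deposited FPKM the difference was 1.08 for ESRP1 and 0.45 for CDH1, the latter under the 1.5-fold limit. EPCAM differed by 0.07 (-0.11 to 0.24), by 0.34 under scaling by total fragments and by -0.38 in deposited FPKM. GRHL2 differed by -0.47 (-0.86 to -0.11), under the 1.5-fold limit. FN1 differed by 0.31 (-1.35 to 2.40). ZEB1 had 9 fragments against 2, a CPM ratio of 3.83 (0.793 to 36.4), and was not called. By deposited FPKM its log2 difference was -0.63. These intervals cover no spread between cultures.

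In NCM460, EPCAM was higher with SCS while SPARC, FN1 and GRHL2 did not differ beyond counting error. Of the 8 genes that passed the filter, 2 were called higher, against 15.4% of 12657 loci, and 0 lower, against 13.8%. EPCAM went from 36 to 126 fragments, a log2 difference of 1.31 (0.79 to 1.91). After subtraction of the GC trend the difference was 0.73 (0.21 to 1.33) and still called. ESRP1 went from 40 to 85 fragments, a difference of 0.60 (0.06 to 1.19), but its difference was -0.23 (-0.78 to 0.36) after the GC trend was subtracted. With DESeq2 size factors it was 0.50, under the limit. After the GC trend was subtracted, 7.32% of 12600 loci were called higher and 5.27% lower.

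CDH1 had 96 and 99 fragments in the NCM460 control and SCS libraries. Its log2 difference of -0.42 (-0.85 to -0.01) was under the 1.5-fold limit and turned to 0.26 when the libraries were scaled by total fragments only. SPARC went from 65 to 102 fragments, a difference of 0.17 (-0.29 to 0.65) that was not called. It was called higher at 0.72 (0.26 to 1.20) after the GC trend was subtracted, as it was under scaling by total fragments (0.85), and by deposited FPKM it was -0.45. The transcripts of SPARC have 56.8% GC, those of EPCAM 45.1% and those of ESRP1 42.6%. FN1 differed by 0.48 (-0.78 to 1.96), GRHL2 by -0.25 (-1.44 to 0.92) and VIM by -1.05 (-3.50 to 0.69). ZEB1 had 2 fragments against 4, a ratio of 0.360 (0.0326 to 2.51).

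**Figure D3:**
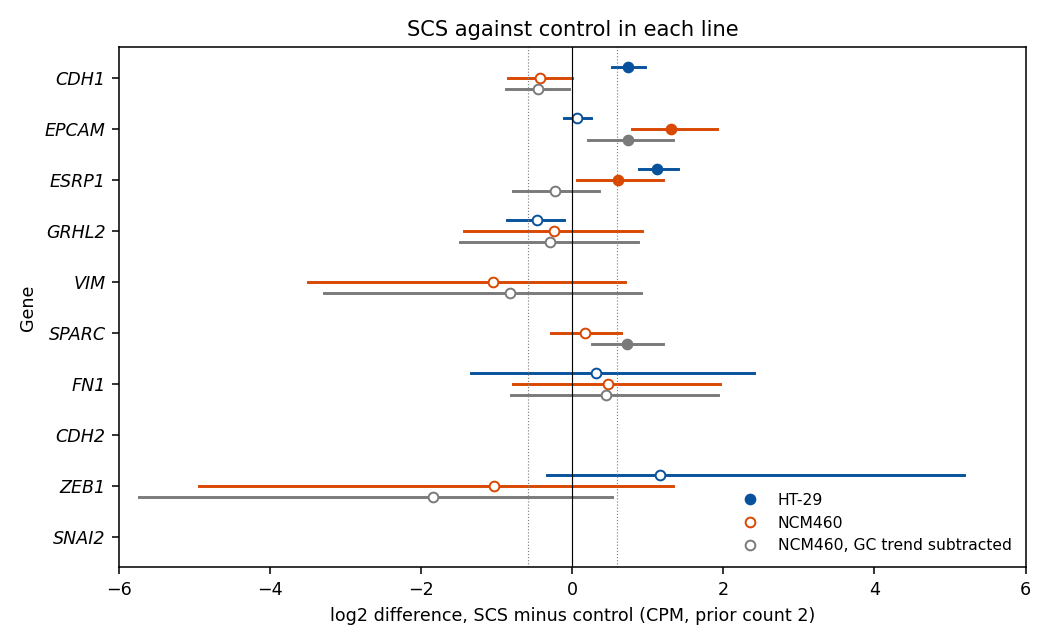
Log2 difference of CPM between SCS and control for each gene in HT-29, in NCM460, and in NCM460 after a GC trend across loci was subtracted. Lines are 95% counting intervals, filled points are called, open points are not, and dotted lines mark the 1.5-fold limit. CDH1 lies at 0.74 in HT-29 and -0.42 in NCM460, ESRP1 in NCM460 moves from 0.60 to -0.23 with the GC trend subtracted, and SPARC moves from 0.17 to 0.72.

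The difference between the lines in their SCS response was larger for CDH1 and EPCAM than its counting error. The HT-29 log2 difference minus that of NCM460 was 1.16 for CDH1 (counting SE 0.233) and -1.24 for EPCAM (0.286). With the GC trends subtracted these were 1.23 and -0.74. For ESRP1 it was 0.53 (0.305), for GRHL2 -0.23 (0.578) and for FN1 -0.17 (1.03). There is no replicate of any condition, so none of these was tested. SCS was also fitted over all 4 libraries with the line as a block, a choice made after the data were seen. None of the 8 genes fitted had an edgeR adjusted p under 0.05 there (lowest 0.969, for ESRP1) or an unadjusted one (lowest 0.118), and 0.0695% of all 12942 loci passed. DESeq2 called none of the 3 genes to which it gave an adjusted p (CDH1, EPCAM and ESRP1, 0.676 to 0.959).

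Other genes of the same roles were taken from 7 lists. Between the lines, genes of the mesenchymal cytoskeleton and matrix were called lower in HT-29 more often than higher, and epithelial regulators higher. In the fit over 4 libraries, 35 of the listed loci other than the 10 genes had an edgeR adjusted p under 0.05, and 26 of these also passed in DESeq2. The median log2 difference of all 12942 loci was 0.12, and 8% of them were called higher in HT-29 and 8.21% lower.

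Of 23 loci of epithelial adhesion and junctions (median 0.11), 3 were higher in HT-29 and 1 lower. TJP1, which encodes the tight junction scaffold ZO-1, had 343 and 731 fragments in HT-29 against 16 and 49 in NCM460, higher by 2.87 on the log2 scale (edgeR adjusted p = 5.28e-05). CDH3, which encodes P-cadherin, was the 1 lower gene, with 3 and 1 fragments in HT-29 against 153 and 139 in NCM460 (edgeR adjusted p = 6.77e-16). The 2 classical cadherins of epithelium thus differed, CDH1 being found in both lines and CDH3 in NCM460 nearly alone. CTNNA1 (0.58), CTNNB1 (-0.33), JUP (-0.44) and DSP (-1.26), which encode catenins and desmoplakin, did not pass.

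Of 14 loci of epithelial transcription and splicing factors (median 1.52), 4 were higher in HT-29 and 0 lower in edgeR, among them EHF, KLF5 and FOXA1, and 2 of the 4 were also called in DESeq2. EHF, an epithelial ETS factor, had 284 and 195 fragments in HT-29 and 0 in both NCM460 libraries. KLF5, a crypt Krüppel-like factor, had 376 and 519 against 22 and 37. ESRP2, the paralog of ESRP1, shares its locus with other genes and did not pass (0.84, edgeR adjusted p = 0.370). KLF4, which is linked to differentiated epithelium, had the lowest difference without SCS among loci of at least 5 CPM (-0.62, 64 against 38 fragments).

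Of 21 other epithelial loci (median 0.85), 6 were higher in HT-29 and 1 lower. TMEM30B, a flippase subunit, had 73 and 109 fragments in HT-29 and 0 in NCM460. MAL2, an apical transport protein, had 436 and 619 against 15 and 73. The lower gene was the keratin KRT19, with 720 and 375 fragments against 1285 and 1150 (log2 difference -2.50, edgeR adjusted p = 2.15e-05). KRT8, its simple-epithelium partner, was high in every library, at 549.7 to 1589 FPKM, and did not pass between the lines (0.72, edgeR adjusted p = 0.267). The keratin KRT18, in a locus with another gene, was among the 6 higher. It had 4453 and 2676 fragments against 548 and 372 (1.66, edgeR adjusted p = 0.00542).

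Of 21 mesenchymal loci of cytoskeleton and surface (median -1.66), 7 were lower in HT-29 and 1 higher. LGALS1, which encodes galectin-1, had 2 and 2 fragments in HT-29 against 391 and 301 in NCM460 (edgeR adjusted p = 6.05e-22). Of the 7, 4 encode actin-binding or contractile proteins, CALD1 (0 and 0 against 8 and 49 fragments), MYL9 (1 and 0 against 43 and 33), CNN3 (2 and 2 against 22 and 33) and TPM2 (77 and 29 against 243 and 221). CAV1 and NES were also lower. Not all actin-binding or contractile genes of the list were lower in HT-29. ACTA2 (-3.25), CNN2 (-0.32), TAGLN (0.11), MSN (0.84) and TPM1 (0.87) did not pass in edgeR. ENG, an endothelial TGF-β coreceptor, was higher, with 33 and 16 fragments against 1 and 0 (edgeR adjusted p = 0.0134), and did not pass in DESeq2 (adjusted p = 0.279). VIM, with at most 7 fragments, was thus far below LGALS1 and TPM2 in the same NCM460 libraries, at 8.32 FPKM in the control against 1269 and 291 FPKM.

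Of 14 matrix loci (median -1.09), 6 were lower in HT-29 and 1 higher in edgeR. COL6A1, a chain of collagen VI, had 0 and 5 fragments in HT-29 against 68 and 51 in NCM460. Its partner chain COL6A2 had 0 fragments in both HT-29 libraries and stood at 52.2 and 20.8 FPKM in those of NCM460. VCAN, COL1A1 and the locus of LOXL2, which holds another gene too, were also among the 6. Of the 7 matrix calls in either direction, 4 also passed in DESeq2. COL1A1 (DESeq2 adjusted p = 0.346) and COL6A2 (DESeq2 adjusted p = 0.0817) did not. TGFBI, a matrix protein named for its induction by TGF-β, was higher, with 81 and 24 fragments against 0 and 0. Of the 29 genes of the list other than SPARC and FN1, 9 were at 0 in every library, among them the collagens COL1A2, COL3A1 and COL5A1. In the NCM460 libraries SPARC was thus found beside COL6A1 and COL6A2, with COL1A1 at 8 and 17 fragments and COL1A2 and COL3A1 at 0. COL6A3, another collagen VI chain, was also at 0 in both NCM460 libraries, and had 0 and 4 fragments in HT-29.

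Of the mesenchymal cadherins and integrins, 4 loci could be tested. ITGA5, the fibronectin receptor chain, had 0 and 0 fragments in HT-29 against 84 and 50 in NCM460, and did not pass in DESeq2 (adjusted p = 0.112). ITGB1 and ITGAV, integrin chains that epithelial cells use as well, were higher in HT-29 by 1.83 and 2.12 on the log2 scale (edgeR adjusted p = 0.0106 and 0.00768). CDH11, CDH4, CDH6 and CDH13 were at 0 throughout, as CDH2 was.

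Of 18 EMT transcription factors other than ZEB1 and SNAI2, 8 were at 0 in every library, among them TWIST1, TWIST2 and PRRX1, and 8 loci could be tested (median -1.01). HMGA2, an architectural chromatin protein, was lower in HT-29 (29 and 12 fragments against 42 and 99, edgeR adjusted p = 0.000249). RUNX2, a bone lineage factor, was higher (83 and 29 against 0 and 3, edgeR adjusted p = 0.00147) and did not pass in DESeq2 (adjusted p = 0.106). SNAI1 had 6 and 11 fragments against 15 and 10 (edgeR adjusted p = 0.120), and ZEB2 had 1 fragment in all.

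**Figure D4:**
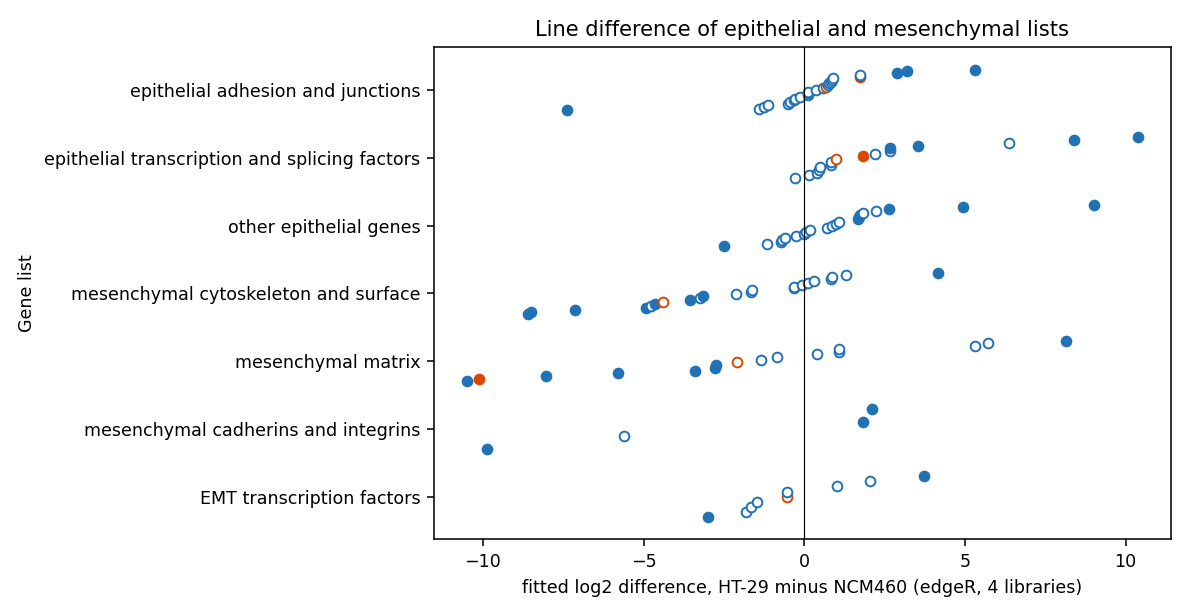
Fitted log2 difference between HT-29 and NCM460 of every locus tested in the 7 lists, 1 point per locus. Orange points are the genes among the 10, blue points the others, and filled points have an edgeR adjusted p under 0.05. Points beyond about 8 either way have 0 or a few fragments in 1 line, so that their position depends on the prior count. The median is 1.52 for epithelial transcription and splicing factors and -1.66 for mesenchymal cytoskeleton and surface genes.

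With SCS in HT-29, of 22 junction loci 4 were called higher and 2 lower (median 0.15, against 0.07 for all 12168 loci, of which 16.8% were called higher and 14.8% lower), shares close to or under those of all loci. DSC2, which encodes desmocollin-2, went from 29 to 100 fragments (1.47), and EVPL, which encodes envoplakin, from 93 to 48 (-1.14). Of 14 epithelial regulators 2 were called higher and 3 lower. FOXA2 went from 4 to 24 fragments (1.80). Of 21 other epithelial loci 4 were called higher and 7 lower. S100A14 went from 58 to 169 fragments (1.27) and KRT8 from 7024 to 3518 (-1.23).

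Of 15 mesenchymal cytoskeletal and surface loci, 1 was called higher and 7 lower (median -0.68), against 16.8% and 14.8% of all loci. EMP3 went from 15 to 51 fragments (1.39) and S100A4 from 57 to 16 (-1.88), and the adhesion receptor CD44 went from 593 to 308 (-1.17). Of 13 matrix loci 0 were called higher and 2 lower, including TGFBI, from 81 to 24 fragments (-1.86), a share close to that of all loci. Among matrix loci of at least 5 CPM, that of LOXL2 had the highest difference (0.30, not called). Neither ITGB1 (0.30) nor ITGAV (0.28) was called. Of 8 EMT factors 0 were called higher and 3 lower, with RUNX2 going from 83 to 29 fragments (-1.65) and TCF12 at 0.42, the highest among those of at least 5 CPM.

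With SCS in NCM460, fewer loci of the lists, as of all loci, were called once the GC trend was subtracted. Of 23 junction loci, 4 were called higher and 8 lower, and after subtraction of the trend 2 and 3. Of all loci, 15.4% were called higher and 13.8% lower, or 7.32% and 5.27% after the trend. DSG2, which encodes desmoglein-2, went from 17 to 99 fragments (2.01) and EVPL from 55 to 28 (-1.40). Of 9 epithelial regulators 2 were called higher and 1 lower, or 2 and 0 after the trend. OVOL2, in a locus with another gene, went from 20 to 74 fragments, and ELF3, likewise, from 95 to 63, a call lost after the trend. Of 19 other epithelial loci 2 were called higher and 6 lower, or 2 and 1. CD24 went from 4 to 23 fragments (1.82), and KRT18, in a locus with another gene, from 548 to 372 (-1.03).

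Of 20 mesenchymal cytoskeletal loci 3 were called higher and 4 lower, or 1 and 0 after the trend. The shares of all loci were 15.4% and 13.8%, or 7.32% and 5.27% after the trend. CALD1 went from 8 to 49 fragments (2.01) and was still called after the trend. ACTA2 had 9 and 4 fragments and was not called (-1.37, -3.80 to 0.20). Of 12 matrix loci 1 was called higher and 4 lower, or 1 and 0. VCAN went from 9 to 31 fragments (1.22) and TIMP2, in a locus with another gene, from 42 to 30 (-0.93), and neither was called after the trend (0.66 and -0.54). ITGB1 went from 43 to 234 fragments (1.95) and ITGA5 from 84 to 50 (-1.20). These 2 integrin calls held after the trend. HMGA2 went from 42 to 99 fragments (0.75), the 1 EMT factor called. SNAI1 had 15 and 10 fragments and was not called (-0.97).

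Loci whose profile over the 4 libraries was nearest to that of CDH1 were AIFM2, a locus of C1R and C1RL, HLA-E, a locus of KIAA0226 and MIR922, and CLASP1, at Euclidean distances of 0.0522 to 0.140 in centred log2 CPM among 7799 loci. For VIM they were INTS1, GAPDH, HSPB1, CUEDC2 and a locus of SLC39A3 and neighbours. VIM had 12 fragments in all, so its profile is set largely by the prior count. For SPARC, added after its values were seen, they were a locus of the globin genes HBE1, HBG1 and HBG2 (0, 1, 49 and 104 fragments), MAGEB2 (0, 0, 43 and 66), AKAP12, KCNN4 and the collagen gene COL12A1 (0, 0, 37 and 85). The 4 libraries allow only a description of likeness.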

How the data were processed

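RNA was extracted with TRIzol and sequenced as paired ends on a HiSeq instrument, per the study's methods, and the libraries were made with a NEBNext Ultra kit, per the labels. The submitters' processing notes name bcl2fastq 2.17.1.14, cutadapt 1.9.1, Bowtie2, HTSeq 0.6.1 and hg19, whereas the coordinates of the table are those of GRCh38, and the study's methods name Cuffdiff. Strand-specific counting is not given in the sources used here, so antisense partners cannot be told apart from a gene.

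A single deposited table gave counts and FPKM for each library. The count columns the authors made are a signal, fragments divided by a size factor, and at a tolerance of 0.1 fragments whole fragments were recovered for 99.9% to 100% of values. Values were rounded to whole fragments, 26 rows without a gene name (0.00581% to 0.0352% of the values) were left out, and adjacent rows with identical values were merged into 18650 loci above 0. The study's statistics section speaks of repeated experiments, whereas every condition analysed here had 1 library. The deposited FPKM values are on a scale of fragments per kilobase and library size, set by the authors.

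Libraries were scaled by TMM in edgeR 4.0.16 (factors 1.24, 1.50, 0.578 and 0.935 for HT-29 control, HT-29 SCS, NCM460 control and NCM460 SCS). Log2 differences used CPM with a prior count of 2, over loci whose mean reached 1 CPM, and intervals were Clopper-Pearson at 95%. The 4-library fit was glmQLFit and glmQLFTest with line and treatment (common biological coefficient of variation 0.383). Alternatives were DESeq2 1.42.0, limma-voom (limma 3.58.1), other scalings, filters and prior counts, thinning, deposited FPKM with a pseudocount of 0.1, and subtraction of a lowess trend (span 0.3) on transcript GC content from GENCODE 29, known for 98.9% of loci. The scripts were tested on simulated data. Besides the 10 genes, the genes named were, per list, the largest and smallest differences between the lines without SCS and with SCS in each line, over loci of at least 5 CPM, and the 5 nearest profiles to CDH1 and VIM among loci of at least 10 CPM. Further genes of the lists, and the profiles near SPARC, were named with their values known. The members and lists were chosen with earlier results of these data known. Values of some genes of the lists are not reported here.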

Additional observations from a re-analysis of the deposited data

Results flagged for a closer look

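CDH1 was singled out because its log2 difference with SCS had opposite signs in the lines, 0.74 in HT-29 and -0.42 in NCM460, a gap of 1.16. The difference was not tested, since each condition has 1 library. The sign in NCM460 turned to 0.26 when libraries were scaled by total fragments only. By deposited FPKM the difference in HT-29 was 0.45, under the 1.5-fold limit.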

How the results depend on the processing

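With 1 library per condition, no library could be left out within a comparison, and intervals cover counting error only. The labels carry no replicate numbers, so SCS and control could be matched by line only. With the line as a block over 4 libraries, chosen after the data were seen, edgeR gave 9 loci with an adjusted p under 0.05 for SCS (695 at an unadjusted p under 0.05) and DESeq2 27. VIM, FN1, ZEB1, SNAI2 and CDH2, at 16 fragments or fewer in every library, are limited by depth. Loci called numbered 3839 (HT-29 SCS), 3690 (NCM460 SCS), 6144 (lines without SCS) and 6082 (lines with SCS), and by deposited FPKM, with a fold only, 6425, 8430, 9352 and 9177. After subtraction of the GC trend NCM460 SCS had 1586. Of the 10 genes, 2 were called in NCM460 with SCS, and 1 with DESeq2 size factors or after thinning of the libraries to the smallest nuclear total. The line fit called 2099 loci in edgeR, 877 with DESeq2's Wald test and 3351 with scaling by total fragments only. Reversed were ESRP1 with the GC trend subtracted (-0.23 for SCS in NCM460 and -0.26 for the lines without SCS), FN1 by FPKM (0.76, lines with SCS) and ZEB1 in the line fit with total fragments only (0.30, adjusted p = 0.902 in edgeR). The cause was not tested. Of the other alternatives of single genes among the 10, 283 kept their side of the call, of which 7 uncalled differences changed sign, 15 lost the call, 8 gained it, and 5 uncalled ones moved beyond their interval, of which 4 changed sign.

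Scaling by total fragments moved the median log2 difference of all loci from 0.07 to 0.31 (HT-29 SCS), 0.03 to 0.65 (NCM460 SCS), 0.10 to 1.12 (lines without SCS), 0.05 to 0.63 (lines with SCS) and 0.12 to 0.98 (line fit). The share of calls that were higher went from 53.1% to 73.8%, 52.7% to 94.1%, 52.3% to 85.1%, 51.9% to 76.5% and 49.4% to 83.9% in that order, and was 38.0% in DESeq2's Wald test of the lines.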
